A study of Homo sapiens with 6 samples.

Results

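The genes described are 10 regulators of the G1 phase and of entry into S phase: the D-type cyclins CCND1 and CCND3, their kinases CDK4 and CDK6, the E-type cyclins CCNE1 and CCNE2, their kinase CDK2, the CDK inhibitor CDKN1B (p27), the pocket protein RB1 and the transcription factor E2F1. They are taken by name and not by a cut on their values, as the 10 rows with these symbols among the 78932 genes of the count table. Earlier results of these data were known when they were chosen. Poly(A) RNA is sequenced from T24, a cell line from a human urothelial carcinoma. There are 3 replicates transfected with a control siRNA (siNC) and 3 with siRNA that targets TRIM28 (siTRIM28). All 6 libraries are treated as 1 batch, and the cultures were transfected and carry no other stated treatment. The time after transfection and which TRIM28 siRNA these cultures received are not given in the sources used here, and 1 cell line stands for the disease.

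In G1, mitogens raise the D-type cyclins, which activate CDK4 and CDK6 to phosphorylate RB1. Phosphorylated RB1 releases E2F factors, which switch on CCNE1, CCNE2 and the genes of DNA replication, and cyclin E with CDK2 completes the phosphorylation of RB1. CDKN1B holds CDK2 inactive until SCF ubiquitin ligases remove it, and loss or silencing of RB1 and gain of CCND1, CCNE1 or E2F3 are known events of bladder cancer. Much of this circuit acts on proteins, through phosphorylation and degradation, which transcript counts do not measure. In bulk RNA a change in the share of cells in a phase and a change in level per cell cannot be told apart.

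The knockdown is present in each library labelled siTRIM28. TRIM28 has 1382 to 1419 reads in the siNC libraries and 96 to 130 in the siTRIM28 libraries, or 104 ± 4.09 and 8.87 ± 0.658 CPM (counts per 1e+06 counts after TMM scaling, mean ± SD, n = 3 each). Total counts lie between 12989362 and 13942383 in siNC and between 11712623 and 14018052 in siTRIM28. At this depth each of the 10 genes has at least 52 reads in each library. Within groups the libraries are unequally close. The chi-square of the counts per degree of freedom is 1.08 for siNC replicates 1 and 2 and 1.22 for siTRIM28 replicates 2 and 3, where sampling noise gives 1, against 4.17 or more for the pairs that include siNC replicate 3 or siTRIM28 replicate 1 within their group. Even the closest pair differs beyond sampling noise, and all 6 libraries are counted. Values without these libraries are given where they matter. The counts do not show whether the close libraries come from separate cultures, and n = 3 treats each library as separate. Of 6 epithelial markers KRT8, KRT18 and KRT7 reach 10 reads in 3 libraries, while EPCAM, CDH1 and KRT19 do not, and of 7 urothelial markers only UPK1A does, at 0.874 ± 0.490 CPM in siNC and 3.41 ± 0.658 in siTRIM28. The summed level of 9 markers of other cell types is 347 to 351 CPM in siNC and 341 to 366 in siTRIM28, nearly all of it CD68 at 348 ± 2.38 and 351 ± 12.1. COL1A1, a collagen of fibroblasts, has 0.932 ± 0.265 CPM in siNC and 3.28 ± 0.635 in siTRIM28, and the other 7, among them PTPRC and CD3E of leukocytes, have group means under 1 CPM. KRT7 rises by 0.56 and KRT8 by 0.14 on the log2 scale, and the summed epithelial markers have 189 to 197 CPM in siNC and 207 to 215 in siTRIM28. UPK1A, COL1A1, KRT7 and KRT8 move with the knockdown, and their part in the values below was not tested.

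Of the 10 genes, 6 are higher and 2 are lower in siTRIM28 at an adjusted p under 0.05, and CCND3 and CDK2 do not pass (edgeR's quasi-likelihood test, Benjamini-Hochberg adjustment over 18474 genes). All 10 pass the filter on low counts in both groups. Among all genes tested 41.8% pass, 21.3% higher and 20.5% lower. The median log2 fold change of the 10 genes is 0.32, against 0.02 for all genes tested, and their median size regardless of sign is 0.40 against 0.27. For 8 of the 10 genes all libraries of 1 group lie above those of the other, as for 52.0% of all genes tested. The largest rises are those of CCNE1, CDK6 and CCND1, and CDK4 and E2F1 fall. For a single gene, 3 libraries against 3 cannot give an exact permutation p under 0.1.

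**Figure D1:**
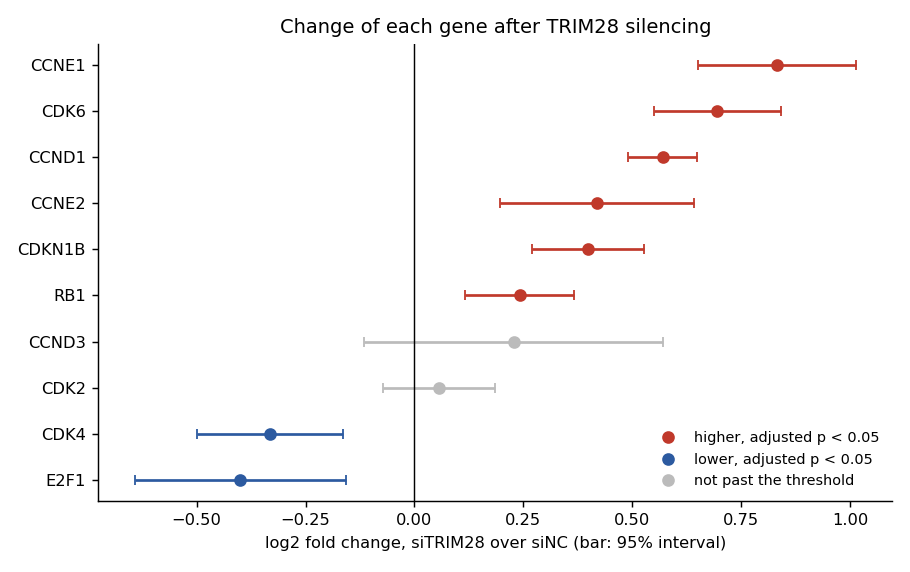
Log2 fold change of each gene, siTRIM28 over siNC, from edgeR with its 95% interval (3 libraries per group). CCNE1 lies highest at 0.83 and E2F1 lowest at −0.40, and the intervals of CCND3 and CDK2 include 0.

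CCND1, the main partner of CDK4 and CDK6 in many epithelial cells, rises in siTRIM28. CCND1 (ENSG00000110092, chromosome 11 of GRCh38, 69641156 to 69654474) has 259, 263 and 261 CPM in siNC replicates 1, 2 and 3 and 390, 387 and 384 CPM in siTRIM28 replicates 1, 2 and 3. The SD is 2.17 CPM in siNC and 2.76 CPM in siTRIM28, and the groups lie far apart. The log2 fold change is 0.57 (edgeR's quasi-likelihood test, adjusted p = 2.93e-07, SE 0.0361), a 1.48-fold higher mean. CCND1 has the lowest p of the 10 genes and stands at place 250 of 18474 by p. The genes whose log2 CPM follows that of CCND1 most closely over the 6 libraries are VMP1, CFAP44 and ENO2, with Pearson's r of 0.9998, 0.9997 and 0.9996 among 9386 genes with a mean of at least 10 CPM. These likenesses rest on the shared contrast of 2 groups. LTO1, on the opposite strand, shares 1399 bases with the 3′ end of CCND1 and has 56.5 ± 5.17 CPM in siNC and 69.8 ± 9.05 in siTRIM28 (adjusted p = 0.0187 in edgeR, a log2 change of 0.31). The sources used here do not give the strand setting of the counting, so the part of LTO1 reads in the CCND1 count was not tested.

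CCND3, a D-type cyclin better known from blood cells, is the lowest of the 10 genes in these cells. CCND3 (ENSG00000112576, chromosome 6, 41934934 to 42050357) has 3.74, 4.62 and 4.94 CPM in siNC and 4.78, 5.15 and 5.66 CPM in siTRIM28. The groups overlap. The log2 fold change of 0.23 has a 95% interval from −0.12 to 0.57 (adjusted p = 0.275, edgeR's quasi-likelihood test), so a difference is not detectable at this depth. CCND2, the third D-type cyclin and not among the 10 genes, rises from 30.7 ± 1.31 to 40.01 ± 2.38 CPM (adjusted p = 7.49e-04 in edgeR, a log2 change of 0.38). Per length, the 3 D-type cyclins sum to 59.4 ± 0.418 RPKM in siNC and 87.2 ± 0.503 in siTRIM28 (CPM per kilobase of the gene's deposited length, n = 3 each). Of this sum CCND1 makes 92.2% ± 0.261 in siNC and 93.2% ± 0.374 in siTRIM28. The sums do not overlap between groups (exact permutation test, two-sided, p = 0.1).

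The kinases of the D-type cyclins move in opposite directions. CDK4 (ENSG00000135446, chromosome 12, 57747727 to 57756013) has 137, 146 and 146 CPM in siNC and 99.0, 115 and 128 CPM in siTRIM28. Each siTRIM28 library is below each siNC library, but the siTRIM28 libraries spread widely, with replicate 1 lowest. The log2 fold change is −0.33 (edgeR's quasi-likelihood test, adjusted p = 0.00444, SE 0.0764), and −0.24 without siTRIM28 replicate 1 (adjusted p = 3.34e-04). CDK6 (ENSG00000105810, chromosome 7, 92604921 to 92836573) has 35.0, 35.7 and 37.8 CPM in siNC and 54.3, 60.7 and 60.6 CPM in siTRIM28. The rise is larger than the spread of either group, with a log2 fold change of 0.70 (same test, adjusted p = 7.38e-06, SE 0.0665). MARCHF9, which shares 911 bases with CDK4 on the opposite strand, has only 8.57 ± 0.159 CPM in siNC and 11.2 ± 1.20 in siTRIM28.

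The opposite changes go with a lower ratio of CDK4 to CDK6 transcripts in each siTRIM28 library. The ratio of CDK4 to CDK6 in RPKM is 15.5, 16.2 and 15.3 in siNC and 7.20, 7.47 and 8.32 in siTRIM28. The log2 ratio changes by −1.03, the largest change of the 5 gene pairs compared, and the groups do not overlap (exact permutation test, two-sided, p = 0.1, 0.167 adjusted over 5 pairs). CDK4 remains the more abundant transcript per length in each library. Summed per length, CDK4 and CDK6 have 49.2 ± 1.81 RPKM in siNC and 41.5 ± 4.89 in siTRIM28 (exact permutation test, two-sided, p = 0.1).

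The promoter windows of these kinases are shown because they move in opposite directions, and that of E2F1 because its own promoter is a known E2F target and E2F1 falls. RefSeq windows on GRCh38.p14, from 250 bases before to 50 bases after a transcription start, match 7 of the 10 genes. Only the windows of CDK6, CCNE1 and E2F1 include a start at the end of the gene's span in the count table. The starts used for CCND3, CDK4, CDKN1B and RB1 lie inside the span, that of RB1 at 48476450 far from the 5′ end at 48303744, so the main RB1 promoter was not searched. They were searched on both strands for the E2F words TTTGGCGC, TTTCCCGC, TTTGCCGC and TTTCGCGC and for the E-box CACGTG, the word bound by MYC and other factors. Overlapping matches were allowed, and capitals mark the matches.
E2F1, chr20:33686336-33686635, minus strand: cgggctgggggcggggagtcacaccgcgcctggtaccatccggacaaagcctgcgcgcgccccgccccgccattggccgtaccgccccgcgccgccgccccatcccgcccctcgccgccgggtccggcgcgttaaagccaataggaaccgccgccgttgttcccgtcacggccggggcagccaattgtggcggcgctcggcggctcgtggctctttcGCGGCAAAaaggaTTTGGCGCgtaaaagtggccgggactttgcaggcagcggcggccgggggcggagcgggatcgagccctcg
CDK4, chr12:57752261-57752560, minus strand: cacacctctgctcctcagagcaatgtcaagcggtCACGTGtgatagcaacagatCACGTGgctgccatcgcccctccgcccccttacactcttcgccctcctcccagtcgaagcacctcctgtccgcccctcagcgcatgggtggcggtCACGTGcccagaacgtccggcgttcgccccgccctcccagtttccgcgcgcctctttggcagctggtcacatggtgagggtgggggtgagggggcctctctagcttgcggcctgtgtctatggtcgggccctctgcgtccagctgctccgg
CDK6, chr7:92836524-92836823, minus strand: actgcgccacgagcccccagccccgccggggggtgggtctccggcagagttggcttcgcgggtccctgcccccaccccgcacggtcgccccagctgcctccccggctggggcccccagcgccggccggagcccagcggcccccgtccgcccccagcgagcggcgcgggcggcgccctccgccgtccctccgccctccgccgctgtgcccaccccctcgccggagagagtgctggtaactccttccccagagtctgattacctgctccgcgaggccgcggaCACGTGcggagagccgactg

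E2F1 holds 2 E2F words, which start 33 and 20 bases before the transcription start, and is the only one of the 7 genes with a match to these words in the windows searched. Of all 35116 promoter windows 3.31% hold such a match, in 1090 of 27305 genes. CDK4 holds 3 E-boxes, which start 216, 196 and 101 bases before the transcription start. The CDK6 window shown holds 1, within its transcribed bases. Another CDK6 window, with its start at 92833959, holds none and is not shown. An E-box is found in 7.26% of all windows, in 2396 of 27305 genes. These matches are a description of the letters and not of binding.

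CCNE1 and CCNE2, the cyclins that activate CDK2 at the end of G1, both rise. CCNE1 (ENSG00000105173, chromosome 19, 29811991 to 29824280) has 14.8, 16.0 and 18.0 CPM in siNC and 27.1, 29.1 and 30.7 CPM in siTRIM28. Its log2 fold change of 0.83 is the largest of the 10 genes (edgeR's quasi-likelihood test, adjusted p = 1.01e-05, SE 0.0827), a 1.78-fold higher mean. CCNE1 overlaps no other annotated gene of the table. CCNE2 (ENSG00000175305, chromosome 8, 94879770 to 94896678) has 18.9, 17.9 and 19.2 CPM in siNC and 29.1, 23.98 and 21.5 CPM in siTRIM28. The siTRIM28 libraries are above the siNC libraries but differ among themselves, and replicate 3 lies close to siNC. The log2 fold change is 0.42 (same test, adjusted p = 0.00604, SE 0.102), and 0.28 without siTRIM28 replicate 1 (adjusted p = 0.00220). INTS8 and NDUFAF6, which overlap CCNE2 on the opposite strand, have log2 fold changes of 0.01 and −0.19 and do not pass.

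The E-type cyclins respond unequally in the means, but not beyond the spread. The RPKM ratio of CCNE1 to CCNE2 is 1.40, 1.59 and 1.67 in siNC and 1.66, 2.16 and 2.55 in siTRIM28. The groups overlap, with siTRIM28 replicate 1 inside the siNC range (change in the log2 ratio 0.43, exact permutation test, two-sided, p = 0.2, also 0.2 adjusted over 5 pairs). Their summed level is 10.9 ± 0.712 RPKM in siNC and 17.4 ± 0.209 in siTRIM28, a 1.60-fold higher mean with no overlap (exact permutation test, two-sided, p = 0.1). The sum varies less among the siTRIM28 libraries (SD 0.209 RPKM) than CCNE1 (0.716) or CCNE2 (0.891). In siNC the sum varies more (SD 0.712 RPKM) than CCNE1 (0.642) or CCNE2 (0.155).

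CDK2, the kinase partner of the E-type cyclins, does not pass the test. CDK2 (ENSG00000123374, chromosome 12, 55966781 to 55972121) has 110, 115 and 109 CPM in siNC and 106, 118 and 123 CPM in siTRIM28. The groups overlap, and the log2 fold change of 0.06 has a 95% interval from −0.07 to 0.18 (adjusted p = 0.478, edgeR's quasi-likelihood test). Without siTRIM28 replicate 1 the log2 fold change is 0.12 and passes (adjusted p = 0.0316), so 1 library decides this call. ENSG00000258554, an annotated gene of 565 bases on the opposite strand within CDK2, has 98.2, 105 and 99.6 CPM in siNC and 91.8, 104 and 110 CPM in siTRIM28, close to CDK2 in each library. Reads of CDK2 and of this gene cannot be told apart if strand was not used, and CDK2 is uncertain for that reason.

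CDKN1B, which binds and inhibits cyclin E with CDK2, rises. CDKN1B (ENSG00000111276, chromosome 12, 12685498 to 12721468) has 59.8, 67.5 and 67.3 CPM in siNC and 85.3, 84.0 and 87.0 CPM in siTRIM28. The groups are well separated, with a log2 fold change of 0.40 (edgeR's quasi-likelihood test, adjusted p = 2.01e-04, SE 0.0582). The RPKM ratio of CDK2 to CDKN1B is 4.36, 4.04 and 3.85 in siNC and 2.95, 3.33 and 3.37 in siTRIM28, lower in each siTRIM28 library (exact permutation test of the log2 ratio, two-sided, p = 0.1, 0.167 adjusted over 5 pairs). CDK2 itself does not pass, and the uncertainty of its count given above holds for this ratio too. An activating cyclin, CCNE1, and the inhibitor of the same kinase are both higher in the same libraries. ENSG00000256658, a gene of the opposite strand that shares 579 bases with CDKN1B, has 3.51 ± 0.182 CPM in siNC and 5.39 ± 1.30 in siTRIM28.

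**Figure D2:**
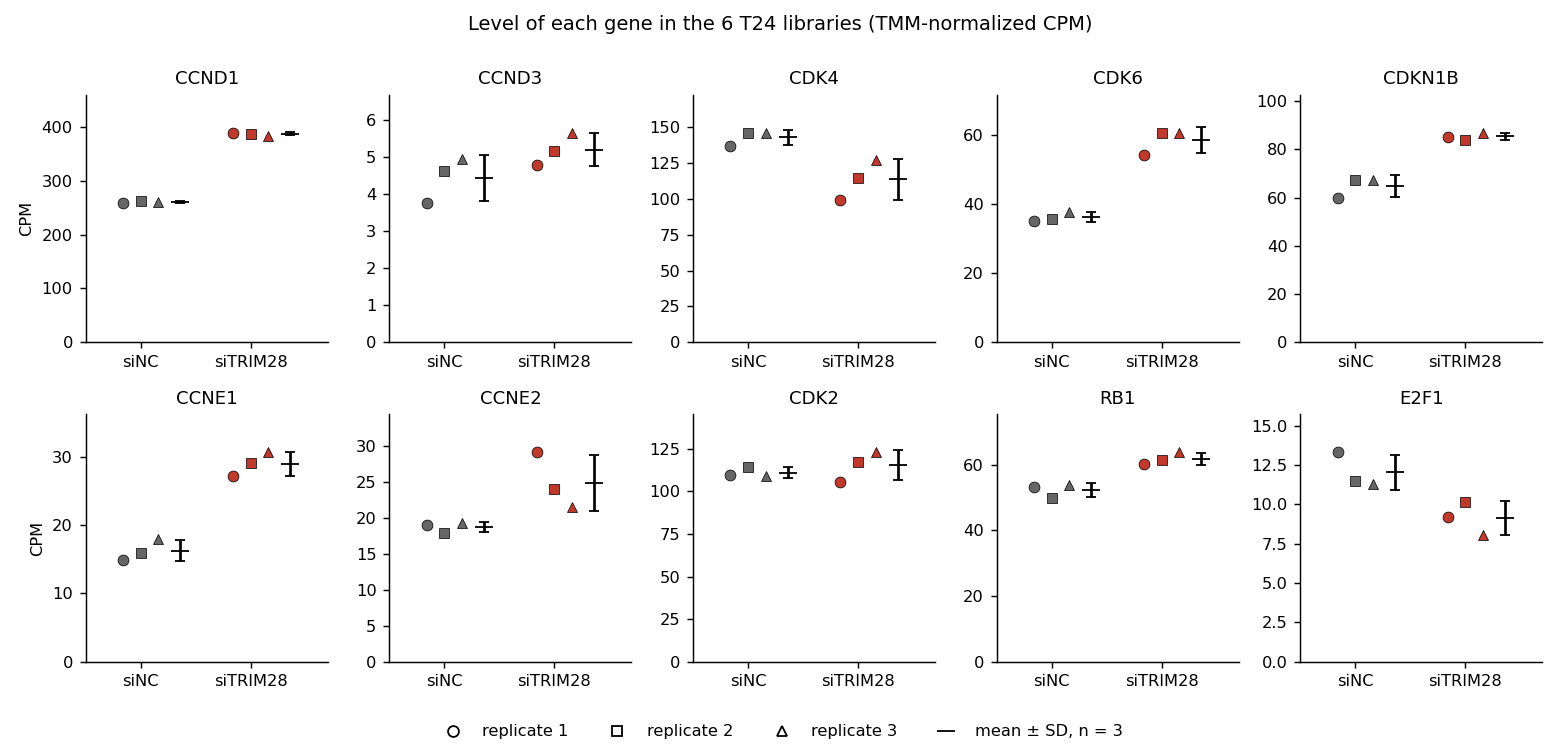
TMM-normalized CPM of each gene in each library, with 3 siNC and 3 siTRIM28 libraries by replicate number and the mean ± SD beside them, each axis from 0. The groups are apart in 8 panels and overlap for CCND3 and CDK2, and CDK4 and CCNE2 spread most among the siTRIM28 libraries.

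RB1, the retinoblastoma protein that holds E2F factors, rises slightly. RB1 (ENSG00000139687, chromosome 13, 48303744 to 48599436) has 53.1, 49.9 and 53.9 CPM in siNC and 60.3, 61.3 and 63.8 CPM in siTRIM28. The groups do not overlap, and the log2 fold change is 0.24 (edgeR's quasi-likelihood test, adjusted p = 0.00500, SE 0.0568), the smallest change that passes. With the close libraries of each group summed into 1 sample it is 0.21 and no longer passes (adjusted p = 0.0706). LPAR6, whose span lies within that of RB1 on the opposite strand, has 1.14 ± 0.318 CPM in siNC and 1.39 ± 0.652 in siTRIM28.

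E2F1, an activator of the E2F family, falls. E2F1 (ENSG00000101412, chromosome 20, 33675477 to 33686385) has 13.3, 11.5 and 11.3 CPM in siNC and 9.21, 10.1 and 8.02 CPM in siTRIM28, from 144 to 185 reads and 95 to 129 reads per library. Each siTRIM28 library is below each siNC library. The log2 fold change is −0.40 (edgeR's quasi-likelihood test, adjusted p = 0.0125, SE 0.111). The call is lost without siNC replicate 1 (−0.33, adjusted p = 0.0687) and without siTRIM28 replicate 3 (−0.33, adjusted p = 0.0534). The RPKM ratio of E2F1 to RB1 is 0.601, 0.551 and 0.501 in siNC and 0.366, 0.396 and 0.301 in siTRIM28, with no overlap and a change of −0.64 in the log2 ratio (exact permutation test, two-sided, p = 0.1, 0.167 adjusted over 5 pairs).

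**Figure D3:**
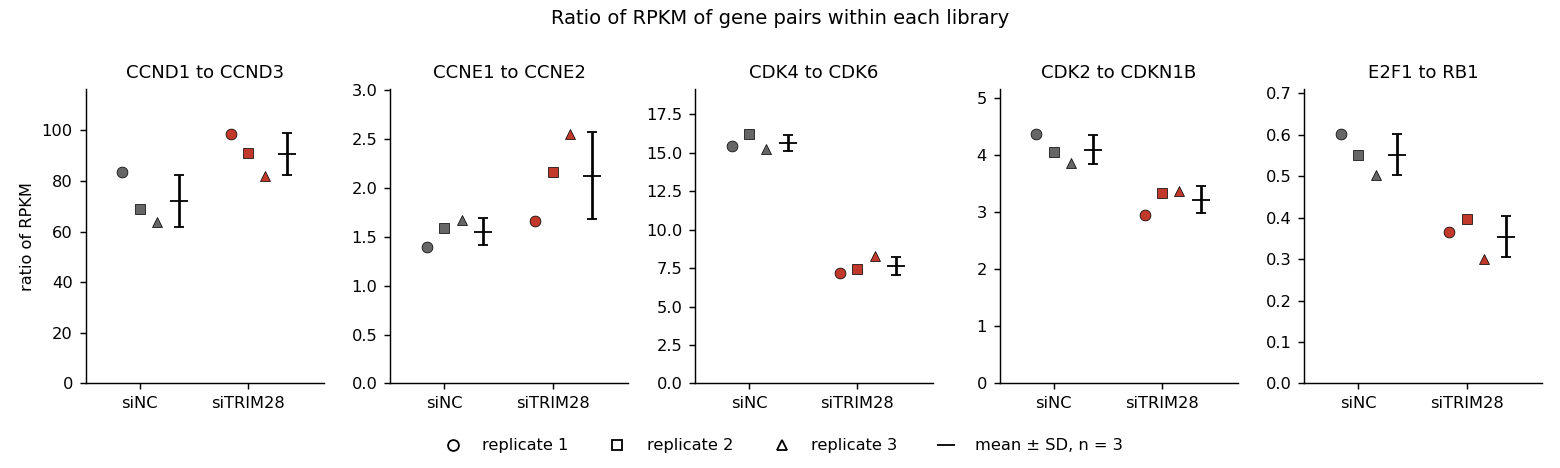
Ratio of RPKM within each library for 5 gene pairs, with the mean ± SD of 3 libraries per group and each axis from 0. CDK4 to CDK6 changes most, from 15.7 ± 0.513 to 7.66 ± 0.582, while CCND1 to CCND3 and CCNE1 to CCNE2 overlap between groups.

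Per length, the 10 transcripts span a wide range and their order changes between the groups. In siNC the order of mean RPKM is CCND1 (54.8), CDK4 (46.2), CDK2 (28.6), RB1 (8.12), CDKN1B (7.005), CCNE1 (6.60), E2F1 (4.47), CCNE2 (4.25), CDK6 (2.95) and CCND3 (0.770). CDKN1B and CCNE1, and E2F1 and CCNE2, are neighbours whose libraries overlap, so their order is not resolved. In siTRIM28 the order is CCND1 (81.3), CDK4 (36.8), CDK2 (29.7), CCNE1 (11.8), RB1 (9.59), CDKN1B (9.23), CCNE2 (5.65), CDK6 (4.79), E2F1 (3.39) and CCND3 (0.902). RB1 and CDKN1B, and CCNE2 and CDK6, overlap there. CCNE1 passes from place 6 to place 4, and E2F1 from place 7 to place 9. These places rest on the deposited gene lengths, which need not be those of the expressed transcripts. In CPM, without length scaling, CCNE1 (28.9) is below RB1 (61.8) and CDKN1B (85.4) in siTRIM28. The ratio of CCND1 to CCND3 is 72.1 ± 10.2 in siNC and 90.6 ± 8.21 in siTRIM28 and overlaps between groups (exact permutation test of the log2 ratio, two-sided, p = 0.2).

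**Figure D4:**
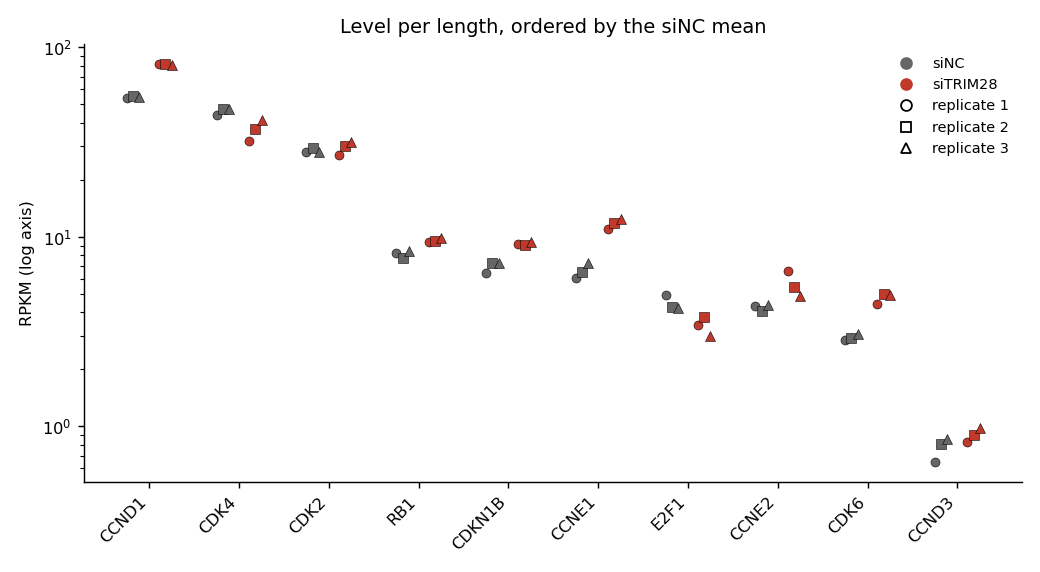
RPKM of each gene in each library on a log axis, ordered by the siNC mean, with the groups by colour and the replicates by marker. CCND1, CDK4 and CDK2 lie highest in both groups, CCND3 lies lowest, and CCNE1 is above RB1 and CDKN1B in the means of siTRIM28 only.

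The other genes of the pathway were read from lists drawn up by role, with earlier results of these data known. Among 6 other CDK inhibitors of G1, 4 are tested and 3 rise, where 21.3% of all genes tested are higher. CDKN1A (p21), the p53 target that inhibits CDK2, rises from 14.9 ± 1.36 to 29.6 ± 1.88 CPM (adjusted p = 2.38e-06 in edgeR's quasi-likelihood test), a log2 change of 0.99. CDKN2D (p19), an inhibitor of CDK4 and CDK6, rises from 9.71 ± 1.09 to 23.5 ± 2.75 CPM, by 1.28 on the log2 scale. CDKN1C (p57) rises by 1.44, at only 1.23 ± 0.0626 CPM in siNC. CDKN2C (p18) has a log2 fold change of 0.03 and does not pass, and CDKN2A and CDKN2B are below the count minimum. With CDKN1B, inhibitors of CDK2 and of CDK4 and CDK6 are higher in the libraries in which CCND1, CCNE1 and CDK6 are higher.

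Genes that act on the cyclins and kinases from outside move in both directions. CDC25A, the phosphatase that activates CDK2, rises from 8.16 ± 0.403 to 17.5 ± 0.523 CPM (adjusted p = 9.34e-07 in edgeR's quasi-likelihood test), a log2 change of 1.10. Of the CDK-activating kinase, CCNH and MNAT1 fall by 0.25 and 0.17 on the log2 scale, and CDK7 has a change of −0.20 that does not pass (adjusted p = 0.0890). Of 8 ubiquitin ligase genes listed as acting, directly or not, on G1 cyclins and p27, 2 rise and 2 fall. The other 4 do not pass, so that 4 of 8 pass, a share near the 41.8% of all genes tested. FBXW7, which targets cyclin E, rises by 0.36, and FZR1, an activator of the anaphase-promoting complex, by 0.31. CUL1 and SKP1, the scaffold and adaptor of SCF, fall by 0.32 and 0.14. SKP2, the subunit that recognises p27, has 17.2 ± 1.60 CPM in siNC and 16.4 ± 1.64 in siTRIM28 and does not pass.

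The relatives of RB1 and E2F1 do not share 1 direction. Of 11 genes 3 rise, 4 fall and 4 do not pass, with a median log2 fold change of −0.07. Thus 63.6% pass, beside 41.8% of all genes tested. Among the activators, E2F2 rises by 0.76 and E2F3 falls by 0.50 on the log2 scale, so E2F1 and E2F3 are lower while E2F2 is higher. The repressors E2F7 and E2F8 rise. E2F7 goes from 18.1 ± 0.318 to 39.98 ± 2.38 CPM (adjusted p = 1.87e-07 in edgeR's quasi-likelihood test), a log2 change of 1.14, and E2F8 rises by 0.47. E2F4, which works with the pocket proteins in resting cells, falls by 0.34, the pocket protein RBL2 (p130) by 0.45 and the dimer partner TFDP2 by 0.48. RBL1 (p107), E2F5, E2F6 and TFDP1 lie between −0.09 and 0.12 and do not pass.

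Targets of E2F divide nearly evenly. Of 23 E2F target genes of the G1/S transition 8 are higher, 9 are lower and 6 do not pass, with a median log2 fold change of 0.05. The 17 that pass become 11 with the close libraries of each group summed and 12 to 17 with 1 library left out. The largest rises are CDT1, a licensing factor of replication origins (0.64), EZH2, a histone methyltransferase (0.47), and MYBL2, a transcription factor (0.42). The largest falls are POLA1, the catalytic subunit of DNA polymerase alpha (from 50.6 ± 0.686 to 19.9 ± 2.09 CPM, log2 fold change −1.35), RRM2, a subunit of ribonucleotide reductase (from 102 ± 1.75 to 48.1 ± 2.14 CPM, −1.09), and MCM2, a subunit of the replicative helicase (−0.70). Of 12 genes of G2 and M phase 7 rise and 2 fall. MKI67, the proliferation marker Ki-67, rises from 894 ± 31.1 to 1461 ± 70.0 CPM (adjusted p = 2.10e-07 in edgeR's quasi-likelihood test), a log2 change of 0.71. This is a transcript level and no measure of growth. The paper reports less Ki-67 staining in tumours from TRIM28-knockout T24 cells and slower growth of TRIM28-silenced T24 cells. CENPF, a kinetochore protein, rises by 0.60 and CDK1, the mitotic kinase, by 0.47. BIRC5 (survivin), an inhibitor of apoptosis and part of the chromosomal passenger complex, falls from 113 ± 1.73 to 34.9 ± 2.25 CPM (−1.70) and CCNB1, the cyclin of CDK1, by 0.34. Past the threshold are 73.9% of the E2F targets and 75.0% of the G2 and M genes, beside 41.8% of all genes tested, in both directions.

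**Figure D5:**
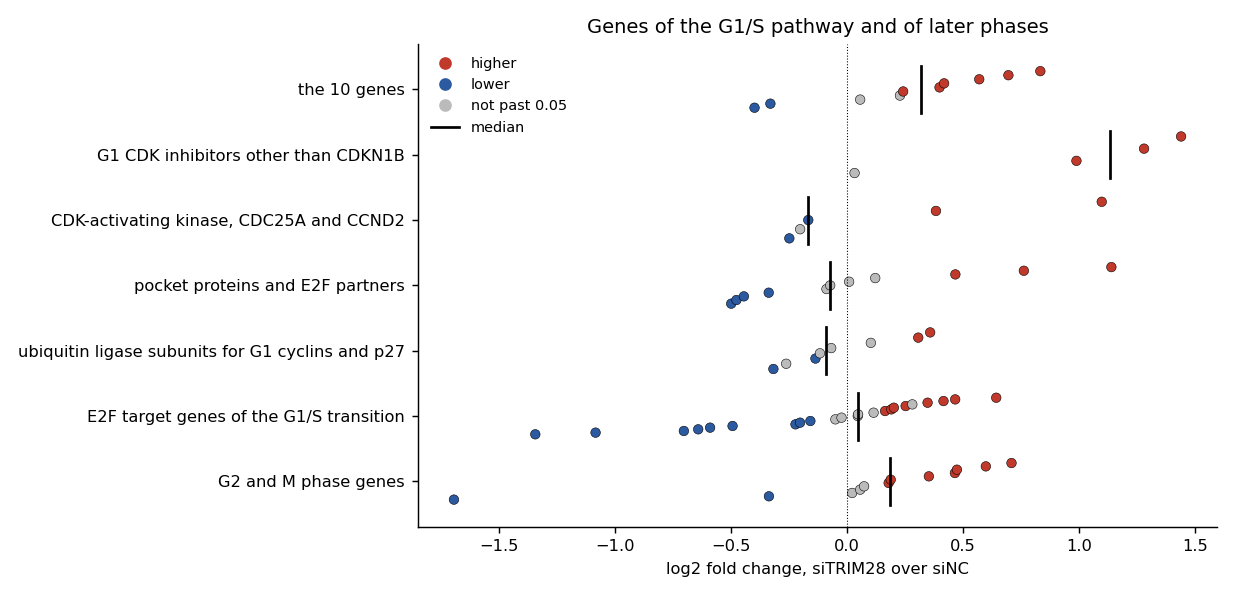
Log2 fold change, siTRIM28 over siNC, of each tested gene of the pathway lists, with the list median as a vertical line and colour for genes past an adjusted p of 0.05 in edgeR. Of the 4 inhibitors 3 lie far to the right, with a median of 1.13, while the E2F targets spread from −1.35 to 0.64 around a median of 0.05.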

How the data were processed

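The libraries are poly(A)-selected and made with a stranded kit, per the labels. The authors deposited raw read counts per gene, without normalization, for 78932 genes of GRCh38. The submitters' processing notes name fastp 0.23.1, STAR 2.7.6a and featureCounts. The annotation release, the strand setting and the use of molecular identifiers are not given in the sources used here. A deposited table of the authors' own comparison of selected genes was not used.

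Genes with at least 10 counts in 3 or more of the 6 libraries (18474) are tested in edgeR 4.0.16 under R 4.3.3, with TMM scaling and condition as the only term. SE is the absolute log2 change over the root of F. CPM and RPKM use the TMM factors and the library sizes of the tested genes, and RPKM the deposited gene lengths. Log2 ratios of genes use a prior count of 2. On simulated data with 200 of 18474 genes changed by 0.8, 175 were called in the right direction and 16 others were called. In the data 41.8% of genes pass and the median size of the log2 change is 0.27, so these rates need not hold there.

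The 10 genes and the lists were chosen with earlier results of these data known. The genes named are the 10, TRIM28, genes that overlap them, list genes by a set rule (in lists over 11 genes, up to 3 rises and 3 falls) and the 3 genes most like the gene of lowest p. Alternatives were scaling by RLE, by upper quartile or by total counts, other filters, DESeq2 1.42.0, limma-voom (limma 3.58.1), a replicate block, leaving out libraries 1 at a time, close libraries summed and an adjusted p under 0.01. Figures were drawn with matplotlib 3.10.9.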

Additional observations from a re-analysis of the deposited data

How the results depend on the processing

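Of 150 values of the 10 genes under 15 alternatives, 146 stayed on the same side of the threshold and none changed direction. CCND1, CDK4, CDK6, CCNE1, CCNE2 and CDKN1B passed in each. The count of the 10 genes that pass lay between 7 and 9 with each library left out, of those higher between 6 and 7 and of those lower between 1 and 2, and at an adjusted p under 0.01 the count lower was 1. The E2F targets past the threshold, 17 as reported, were 11 with close libraries summed, which leaves 4 samples, and 11 at an adjusted p under 0.01. With a prior count of 2 on the summed RPKM, an alternative chosen after seeing the data, the log2 fold of the D-type cyclins was 0.54 against 0.55. That of the E-type cyclins was 0.60 against 0.68, and 0.62 from CPM without length scaling. The count of all genes that pass was 7723, 5878 with DESeq2, 5876 with close libraries summed and 5393 at an adjusted p under 0.01. Upper-quartile scaling gave 4420 of 7804 genes as higher. The replicate block gave 7910 genes and 8 of the 10, and changed no call of the 10. In the pathway lists it gave 45 genes against 44, and CDK7 passed. Same-numbered libraries correlate at 0.05 or less in their deviations, and 3 of 6 libraries correlate best with their own number. These values show no clear pairing by number, but they cannot settle whether the libraries were paired.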
